A study of Mus musculus with 18 samples.

Results

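Long-term hematopoietic stem cells (LT-HSC) of the mouse fetal liver (FL) were set against multipotent progenitors (MPP) of the same organ, gene by gene, on the 3 FL LT-HSC arrays and the 3 FL MPP arrays of a series of 18. All 19505 genes with a probe set of their own entered the comparison, and every difference is LT-HSC minus MPP on the log2 scale. Both populations came from E13.5 embryos of C57Bl/6J mice and were sorted as LSK cells, which lack mature lineage markers and carry Sca-1 and Kit, with Cd150 and Cd48 dividing them. Gate boundaries are stated neither in the labels nor in the design text. The series also holds FL short-term stem cells (ST-HSC) and the same 3 populations from bone marrow (BM) of adult C57Bl/6J mice aged 3 to 12 months, 3 arrays each, lettered a, b and c. No allele or treatment is given in the titles, source names or stage labels, whereas the free-text descriptions of all arrays speak of mice with transplanted marrow and transduced cells. They name sgEzh2 for FL LT-HSC a, FL MPP a, FL MPP b and FL ST-HSC a and sgLuc for the other arrays. The groups follow the titles, source names and stages.

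LT-HSC stand at the top of the blood hierarchy: they can rebuild all blood lineages for the life of a transplanted mouse. MPP have left that state, divide and begin to express genes of the myeloid and lymphoid lineages, and the receptor tyrosine kinase Flt3 is a classical sign of the step. In the fetal liver, where stem cells expand before they seed the marrow, both populations are thought to cycle, unlike the largely quiescent stem cells of adult marrow.

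The genes of the gate came first, since they check the labels and are no finding. Slamf1, which encodes Cd150, was at 9.12, 9.47 and 9.35 in LT-HSC a, b and c, against 6.43, 6.86 and 6.84 in MPP a, b and c (log2 signal). Cd48 was at 9.79, 9.99 and 9.57 in LT-HSC, against 12.35 in each MPP array. Kit, shared by both gates, was at 13.18 to 13.29 in LT-HSC and 13.04 to 13.08 in MPP and did not pass the test. Ezh2, named in the free text, differed by -0.02 ± 0.11 (log2 difference ± SE of the limma fit, as below) and did not pass either. That difference cannot check the sgEzh2 description, since arrays so described are in both groups. Ezh2 was at 10.63 in LT-HSC a (sgEzh2), against 10.83 and 10.68 in LT-HSC b and c. It was at 10.68 and 10.72 in MPP a and b (sgEzh2), against 10.79 in MPP c. In ST-HSC a (sgEzh2) it was at 10.56, against 10.74 and 10.54 in ST-HSC b and c. Whether arrays described as sgEzh2 differ in Ezh2 was not tested. Of the Y-linked genes, Kdm5d was higher in LT-HSC by 0.80 ± 0.20, a call lost without LT-HSC a, LT-HSC c, MPP a or MPP c (adjusted p 0.0862 to 0.17), while Uty (-0.01 ± 0.16) and Eif2s3y (-0.12 ± 0.20) did not pass.

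The 3 LT-HSC arrays resembled each other less than the 3 MPP arrays did. They correlated at 0.979 to 0.989 over genes, against 0.993 to 0.994 within MPP and 0.974 to 0.982 between LT-HSC and MPP arrays. The median SD of a gene was 0.19 in LT-HSC and 0.11 in MPP. Values of LT-HSC b were compressed, with an interquartile range of 2.67, against 2.96 to 3.03 in the other 5 arrays. Whether arrays of 1 group stem from separate litters is not stated, and p-values therefore cover only the spread among arrays within groups, which may be technical. That spread is 1 estimate per gene from all 18 arrays, so the main fit does not model the unequal spread of LT-HSC and MPP.

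Markers of other cell types varied between arrays of LT-HSC. The mean log2 signal of 21 erythroid genes was 9.36, 8.19 and 9.99 in LT-HSC a, b and c, against 8.17, 7.92 and 7.84 in MPP. For 25 hepatocyte and hepatoblast genes it was 7.62, 7.69 and 8.77 in LT-HSC, against 7.86, 7.83 and 7.69 in MPP, so LT-HSC c was highest of the arrays compared. The FL ST-HSC arrays a, b and c, outside the comparison, varied too. Their erythroid means were 8.92, 9.38 and 8.35 and their hepatocyte means 7.85, 8.18 and 7.46. Albumin (Alb) was at 11.79 and alpha-fetoprotein (Afp) at 11.16 in LT-HSC c, against 8.70 and 8.82 (Alb) and 7.97 and 8.62 (Afp) in LT-HSC a and b and up to 9.79 and 8.70 in MPP. In ST-HSC a, b and c Alb was at 9.92, 10.95 and 7.77 and Afp at 9.09, 10.17 and 7.43. The late neutrophil mean was highest in LT-HSC c as well (7.15), against 6.26 and 6.33 in the other LT-HSC arrays and 6.32 to 6.65 in MPP. Summed linear signals were 10232 to 30803 in LT-HSC and 7260 to 8358 in MPP for the erythroid list, 7684 to 16843 and 7757 to 9159 for the hepatocyte list, and 1120 to 2352 and 1115 to 1442 for the late neutrophil list. No marker is at 0 on an array.

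**Figure D1:**
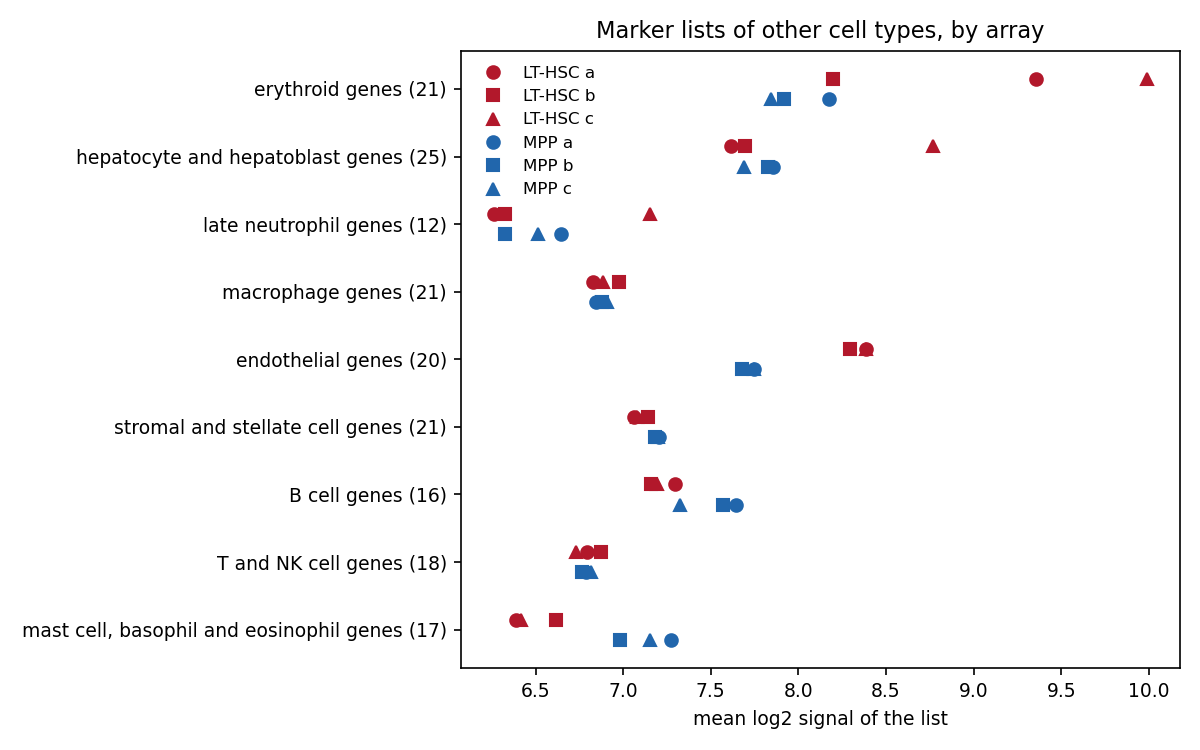
Mean log2 signal (x axis) of 9 marker lists of other cell types (y axis, number of genes measured in parentheses) on each FL LT-HSC array (red) and each FL MPP array (blue), with circles, squares and triangles for arrays a, b and c. The erythroid mean of LT-HSC a (9.36) and c (9.99) and the hepatocyte mean of LT-HSC c (8.77) lie apart from the other arrays shown, which do not include ST-HSC.

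In all, 664 genes differed between LT-HSC and MPP at an adjusted p under 0.05 (limma, Benjamini-Hochberg over all genes), which is 3.4% of those tested. Of these 306 were higher in LT-HSC (1.57% of all genes) and 358 were lower (1.84%). At least 2-fold differences were found for 145 of the higher and 162 of the lower genes, and at least 4-fold ones for 22 and 42. For 663 of the 664 the arrays of LT-HSC and MPP did not overlap, the exception being a gene lower in LT-HSC. Choice by a small p on these same arrays favours such separation, so here and below it describes the values and adds no support. Its share over all genes is not given here. The median difference of all genes was -0.01 and the median SE 0.17. Here and below "higher", "lower", "rose" and "fell" are used of genes past this threshold, and genes that did not pass are given with their values.

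The count of calls depended on single arrays. It was 468, 547 and 452 without LT-HSC a, b or c, and 393, 417 and 396 without MPP a, b or c. Without the arrays described as sgEzh2, which leaves 2 LT-HSC arrays and 1 MPP array, it was 120, and 97 of the 146 genes named with a call here lost it. Of those 146, 93 kept their call without each of the 6 arrays in turn. With the erythroid list mean as a covariate, added after the data were seen, 431 genes were called, 139 higher and 292 lower. Of these, 337 were also called in the main fit, and 47 of the 146 genes named with a call lost it.

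**Figure D2:**
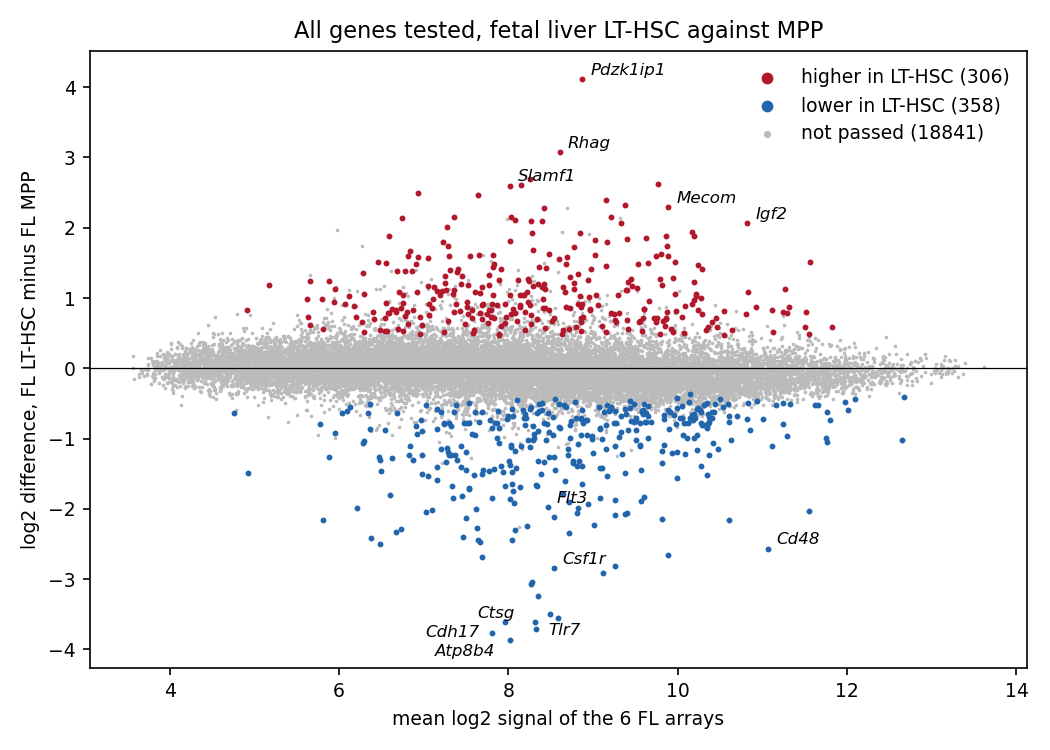
Log2 difference, FL LT-HSC minus FL MPP (y axis), against the mean log2 signal of the 6 FL arrays (x axis) for each of the 19505 genes. The 306 genes higher in LT-HSC are red, the 358 lower ones blue and the rest grey, with Pdzk1ip1 (4.12) at the top and Atp8b4 (-3.86) at the bottom.

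The largest rises were those of Pdzk1ip1, Rhag, Nxpe2, Fn1 and Atp1b2. Pdzk1ip1, a small membrane protein whose reporter marks LT-HSC in mouse marrow, was at 11.13, 10.95 and 10.72 in LT-HSC a, b and c, against 7.0, 6.66 and 6.78 in MPP. All 3 LT-HSC arrays lay far above the MPP arrays, and the difference of 4.12 ± 0.28 (17.4-fold, adjusted p = 1.03e-07) had the largest size of the genes that rose. Mecom, a zinc finger transcription factor that stem cells need to persist, was at 10.78, 10.87 and 11.45 in LT-HSC, against 8.90, 8.89 and 8.44 in MPP (2.29 ± 0.26, adjusted p = 3.01e-05). Mllt3, a chromatin reader of the super elongation complex that maintains stem cells, was at 9.38, 9.43 and 9.51 in LT-HSC, against 7.42, 7.27 and 7.36 in MPP (2.09 ± 0.20, adjusted p = 4.1e-06). The groups did not overlap for either factor, and each of these 3 genes kept its call under every alternative.

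Among 26 transcription factors of stem cells, 7 rose and 1 fell, with a median difference of 0.44, against -0.01 over all genes. Beside Mecom and Mllt3, Myct1 (1.49 ± 0.20), the homeobox gene Nkx2-3 (1.38 ± 0.17) and Meis1, a homeobox cofactor of Hox proteins (0.99 ± 0.24), were higher. Zbtb16, the zinc finger factor PLZF, was lower by 0.91 ± 0.13. The call of Meis1 was lost without any 1 of the 6 arrays (adjusted p 0.0508 to 0.126), and 4 members were higher without MPP a. Of 22 Hox genes measured 19 had a difference above 0 but only Hoxa3 passed (0.94 ± 0.22), a call lost without any 1 array except LT-HSC b (adjusted p 0.062 to 0.101).

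Of 29 surface and reporter genes of stem cells, 10 rose and 1 fell (median 0.45). Tek, the angiopoietin receptor Tie2 that binds stem cells to their niche, was at 9.48, 9.54 and 9.66 in LT-HSC, against 7.48, 6.98 and 7.38 in MPP (2.28 ± 0.36, adjusted p = 0.000698). Ctnnal1, an alpha-catenin relative whose reporter marks stem cells (1.73 ± 0.25), the G protein subunit Gng11 (1.63 ± 0.25) and the P-selectin gene Selp (1.60 ± 0.15) were also separated from MPP. The member that fell was Abcb1b, an efflux pump (-1.82 ± 0.20). Procr, the receptor known as EPCR, was at 7.08, 7.59 and 6.84 in LT-HSC, against 6.43, 6.47 and 5.83 in MPP, and did not pass (0.93 ± 0.29, adjusted p = 0.107). Without MPP b 6 members were higher.

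The SLAM family holds both genes of the gate. Beside them Slamf6 (-1.80 ± 0.32), Cd244a (-1.65 ± 0.23) and Ly9 (-1.65 ± 0.14), receptors of lymphocytes and natural killer cells, were lower in LT-HSC. Cd84, Slamf7, Slamf8 and Slamf9 lay between -0.10 and 0.31 and did not pass.

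Stem cells and endothelium are known to share a common origin, and several of their shared genes were higher. Cdh5, the cadherin of vessel junctions, was at 8.97, 8.52 and 9.14 in LT-HSC, against 6.66, 6.20 and 6.36 in MPP (2.47 ± 0.21, adjusted p = 8.96e-07). In the endothelial list 7 of 20 genes rose and none fell (median 0.36), among them Tek, the VEGF receptor Kdr (1.44 ± 0.21) and the phosphatase Ptprb (1.35 ± 0.25). The list summed to 11455 to 13228 in LT-HSC and 7666 to 7886 in MPP on the linear scale. Tie1 (1.19 ± 0.30) lost its call without any 1 array (adjusted p 0.0659 to 0.176), as did Esam, a junction protein used to mark stem cells (0.60 ± 0.15, adjusted p 0.0542 to 0.149). Robo4, a guidance receptor, rose by 1.17 ± 0.29 and kept its call among the 6 only without LT-HSC b (adjusted p otherwise 0.0732 to 0.135). Without MPP a 4 members were higher. The part of endothelial RNA in these values was not tested.

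Other genes at the top were the matrix protein fibronectin (Fn1, 2.63 ± 0.33), the LIM-domain binding protein Ldb2 (2.16 ± 0.16), the thromboxane synthase Tbxas1 (2.32 ± 0.24) and Klrb1c, the gene of the NK1.1 antigen (2.49 ± 0.17). Klrb1c belongs to a family of near-identical genes, so its signal is uncertain. Fewer cells of a type and less RNA per cell cannot be told apart in such bulk samples, here and for all genes below.

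**Figure D3:**
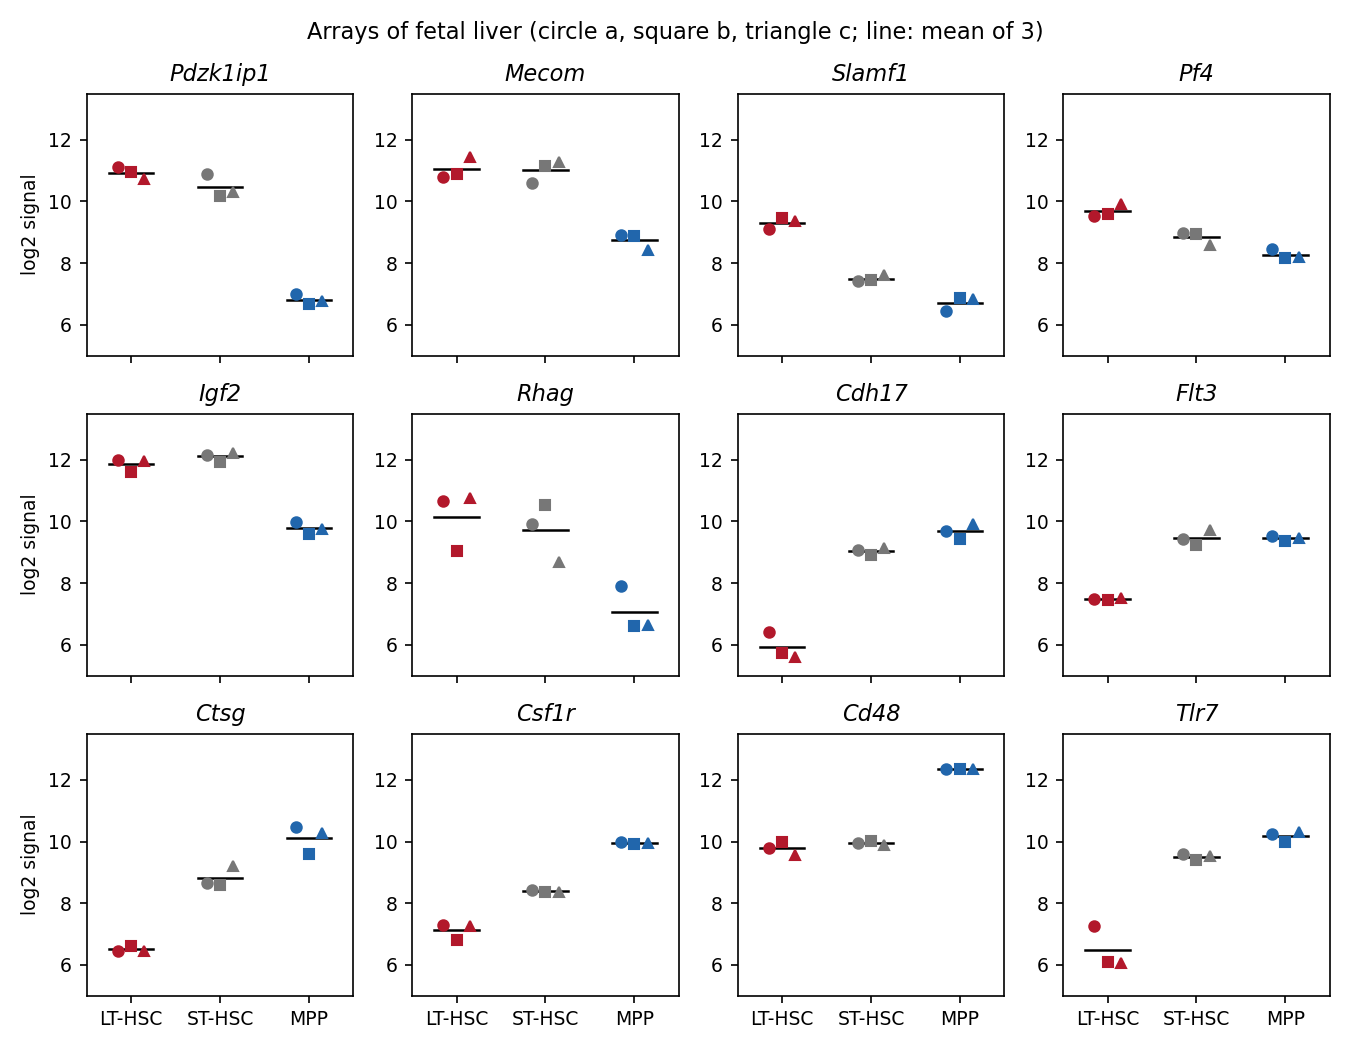
Log2 signal (y axis) of 12 genes on each FL array of LT-HSC (red), ST-HSC (grey) and MPP (blue), with circles, squares and triangles for arrays a, b and c and lines for means of 3 arrays. Pdzk1ip1, Mecom and Igf2 in ST-HSC lie near LT-HSC, Flt3 and Cdh17 in ST-HSC lie near MPP, and Rhag spreads widely within LT-HSC (9.03 to 10.75).

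Megakaryocytes and platelets share many transcripts with stem cells, and 9 of 24 such genes rose in LT-HSC while 1 fell (median 0.55). Pf4, the platelet chemokine, was at 9.52, 9.58 and 9.92 in LT-HSC, against 8.45, 8.15 and 8.20 in MPP (1.41 ± 0.16, adjusted p = 2.35e-05). Rab27b, which moves platelet granules (1.59 ± 0.17), Selp and von Willebrand factor (Vwf, 1.16 ± 0.20) were higher too, and none of these 4 overlapped between LT-HSC and MPP. The member that fell was Plek, a substrate of protein kinase C in platelets (-0.76 ± 0.16); its call was lost without LT-HSC a (adjusted p = 0.0543). Mmrn1 (0.79 ± 0.21), F5 (1.04 ± 0.26) and Itga2b, the integrin Cd41 (0.56 ± 0.14), passed but lost their calls without any 1 array, except F5 without LT-HSC a. Their adjusted p then reached 0.155, 0.157 and 0.156. Without MPP a 4 members were higher.

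Erythroid genes all had a difference above 0, with a median of 1.2 over 21 genes, and 6 of them passed. Rhag, a channel protein of the red cell membrane, was at 10.65, 9.03 and 10.75 in LT-HSC, against 7.91, 6.62 and 6.66 in MPP. The groups did not overlap, but LT-HSC b lay closer to MPP than a and c did, and the difference of 3.08 ± 0.55 (adjusted p = 0.0023) missed the threshold with the erythroid mean as a covariate (1.32 ± 0.34, adjusted p = 0.0537). Epor, the erythropoietin receptor, was at 9.62, 8.77 and 9.49 in LT-HSC, against 7.81, 7.45 and 7.71 in MPP (1.63 ± 0.22, adjusted p = 0.000127). Zfpm1, the cofactor of GATA1 known as FOG1 (1.12 ± 0.24), Blvrb, a biliverdin reductase (1.59 ± 0.39), Icam4 (1.21 ± 0.31) and the carbonic anhydrase Car2 (0.72 ± 0.14) were the others. Zfpm1 lost its call without LT-HSC c or MPP a (adjusted p 0.0547 to 0.0674), and Blvrb and Icam4 kept theirs among the 6 only without LT-HSC b (adjusted p otherwise up to 0.159 and 0.171). Without LT-HSC b 14 members were higher, without MPP a 3, and with the covariate, which is the mean of these same genes, 1.

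The same covariate was also fitted to genes outside the list. Atp1b2, a sodium pump subunit, was at 10.98, 7.50 and 9.87 in LT-HSC, against 6.83, 6.84 and 6.87 in MPP. Of the LT-HSC arrays b was lowest, as for the erythroid mean, but a was highest, whereas the erythroid mean was highest in c. The Atp1b2 difference of 2.60 ± 0.66 (adjusted p = 0.0362) became 0.61 ± 0.50 with the covariate. The call of Atp1b2 held without LT-HSC b but not without any other array (adjusted p 0.109 to 0.167). Nxpe2 was at 10.34, 8.04 and 10.43 in LT-HSC, against 7.47, 6.35 and 6.91 in MPP (2.70 ± 0.56), and lost its call with the covariate and without LT-HSC a, LT-HSC c or MPP b (adjusted p 0.058 to 0.0648). Pdzk1ip1 was at 4.34 ± 0.37 with the covariate. The part of erythroid RNA in these differences was not tested.

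Red cell genes are switched on by GATA factors, which bind the letters AGATAAG in the strand read either way. In RefSeq windows from 250 bases before to 50 after each start (GRCm38.p6), a match was found for 483 of 15691 tested genes that have a window (3.08%), for 9 of 240 genes higher in LT-HSC (3.75%) and for 8 of 283 lower ones (2.83%). Of the 5 erythroid genes that rose and have a window, 2 held a match, and the 250 bases before their starts are shown with the match in capitals, in both cases as the reverse complement. The window of Epor lies at chr9:21963577-21963826 (minus strand) and that of Icam4 at chr9:21029182-21029431 (plus strand).
Epor: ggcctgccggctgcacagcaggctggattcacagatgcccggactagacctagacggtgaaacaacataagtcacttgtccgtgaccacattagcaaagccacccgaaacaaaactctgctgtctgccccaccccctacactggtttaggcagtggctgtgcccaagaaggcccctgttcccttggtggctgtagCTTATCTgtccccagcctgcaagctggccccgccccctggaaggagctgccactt
Icam4: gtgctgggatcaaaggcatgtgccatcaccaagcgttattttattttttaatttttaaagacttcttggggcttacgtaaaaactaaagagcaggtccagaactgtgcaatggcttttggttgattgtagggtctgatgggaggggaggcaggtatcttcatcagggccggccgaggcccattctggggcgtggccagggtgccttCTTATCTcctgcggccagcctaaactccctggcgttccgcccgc
The match begins 55 bases before the start of Epor and 44 before that of Icam4. A match is a description of letters, not of binding.

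Genes under parental imprinting, of which many promote fetal growth, were among those higher in LT-HSC: 7 of 21 rose and none fell (median 0.47). Igf2, the insulin-like growth factor expressed from the paternal copy, was at 11.99, 11.61 and 11.96 in LT-HSC, against 9.99, 9.59 and 9.76 in MPP. The lowest LT-HSC array lay well above the highest MPP array, and the difference of 2.07 ± 0.16 (4.2-fold, adjusted p = 3.03e-07) held under every alternative. Grb10, an adaptor that dampens insulin signals (1.89 ± 0.28), and the zinc finger factor Plagl1 (1.68 ± 0.23) were higher as well. Igf2r, the receptor that clears Igf2, was at 8.25, 7.86 and 9.75 in LT-HSC, against 7.68, 6.57 and 6.77 in MPP (1.61 ± 0.43), and its call was lost without LT-HSC a, LT-HSC c, MPP b or MPP c (adjusted p 0.0657 to 0.26). Sgce (1.13 ± 0.30) lost its call without any 1 array (adjusted p 0.0662 to 0.164).

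Mir675, the microRNA gene that lies within the imprinted noncoding RNA H19 next to Igf2, was at 12.32, 12.34 and 12.32 in LT-HSC, against 10.92, 10.85 and 10.65 in MPP. Its arrays did not overlap, and the difference of 1.52 ± 0.16 (adjusted p = 1.27e-05) held under every alternative. The array reads the transcript, so levels of the mature forms were not measured. The 2 mature forms are printed with the seed, bases 2 to 8, in capitals (RefSeq, GRCm38.p6, chromosome 7, minus strand); they share no seed.
miR-675-5p: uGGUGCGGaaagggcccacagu
miR-675-3p: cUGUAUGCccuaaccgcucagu
They map to chr7:142577112-142577133 and chr7:142577078-142577099. Of the 5 microRNA genes tested this was the only one called.

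Of other fetal genes, the RNA-binding protein Igf2bp3 was at 9.60, 9.80 and 9.95 in LT-HSC, against 10.57, 10.42 and 10.49 in MPP, and was the 1 of 8 oncofetal genes that passed, lower by 0.71 ± 0.18. The call was lost without any 1 array except LT-HSC c (adjusted p 0.0683 to 0.118). Lin28b, which blocks maturation of let-7, differed by -0.72 ± 0.26 and Hmga2 by -0.06 ± 0.19, and neither passed.

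Among the genes lower in LT-HSC the myeloid-priming list had the most members of the 52 lists: 17 of 34 fell and none rose (median -0.92). Ctsg, the granule protease cathepsin G, was at 6.46, 6.61 and 6.46 in LT-HSC, against 10.48, 9.60 and 10.28 in MPP (-3.61 ± 0.41, 12.2-fold lower, adjusted p = 2.35e-05). Csf1r, the receptor of the macrophage growth factor, was at 7.30, 6.81 and 7.25 in LT-HSC, against 10.00, 9.93 and 9.96 in MPP (-2.84 ± 0.29, adjusted p = 8.21e-06). For neither gene did an LT-HSC array come near an MPP array. Fcgr3, an Fc receptor that divides committed myeloid progenitors by flow cytometry (-2.91 ± 0.36), Ly86, a partner of Toll-like receptors (-3.07 ± 0.40), the inhibitory lectin Clec12a (-2.32 ± 0.42) and the oxidase subunit Cybb (-2.0 ± 0.36) were lower too. Ms4a3, a marker of granulocyte and monocyte progenitors (-2.45 ± 0.50), lost its call without MPP a or MPP c (adjusted p 0.0509 to 0.0622).

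The granule genes Mpo, Elane and Prtn3 were singled out after their values were seen. Mpo, myeloperoxidase, was high in both populations, at 12.19, 12.12 and 12.09 in LT-HSC, against 13.09, 13.18 and 13.21 in MPP (-1.03 ± 0.20). Elane, neutrophil elastase, was at 8.47, 8.87 and 8.90 in LT-HSC, against 11.62, 9.98 and 11.05 in MPP (-2.14 ± 0.32). Prtn3, proteinase 3, was at 10.86, 10.71 and 10.88 in LT-HSC, against 11.93, 11.53 and 11.86 in MPP (-0.96 ± 0.23), a call lost without any 1 array except MPP b (adjusted p 0.0594 to 0.107). None of the 3 overlapped between LT-HSC and MPP. Late neutrophil genes, which mark mature cells, were 0 of 12 called in limma and 0 at an unadjusted p under 0.05 (median 0.11), with S100a8 at 5.37, 5.50 and 7.7 in LT-HSC, against 7.73, 5.77 and 7.40 in MPP.

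PU.1, the Ets factor of myeloid cells, binds the letters GAGGAAGT. A match on either strand of the same 300-base windows was found for 554 of 15691 tested genes (3.53%), for 26 of 283 genes lower in LT-HSC (9.19%) and for 7 of 240 higher ones (2.92%). Other letters searched were TTGCNNAA, for C/EBP factors, in 1821 tested genes (11.6%), 40 lower (14.1%) and 17 higher ones (7.08%), and TGTGGTT, for RUNX factors, in 824 (5.25%), 24 (8.48%) and 9 (3.75%). Over all 32851 windows of the table the shares were 3.2% for PU.1, 10.8% for C/EBP, 5.27% for RUNX and 3.04% for GATA. Of the 14 myeloid-priming genes that fell and have a window 4 held the C/EBP letters (28.6%) and 2 the RUNX letters (14.3%). The PU.1 letters were held by 3 of the 14 (21.4%), namely the granule genes described above. The 250 bases before their starts are shown with the match in capitals, at chr11:87793534-87793783 for Mpo, chr10:79886062-79886311 for Elane and chr10:79879417-79879666 for Prtn3, all on the plus strand of GRCm38.p6.
Mpo: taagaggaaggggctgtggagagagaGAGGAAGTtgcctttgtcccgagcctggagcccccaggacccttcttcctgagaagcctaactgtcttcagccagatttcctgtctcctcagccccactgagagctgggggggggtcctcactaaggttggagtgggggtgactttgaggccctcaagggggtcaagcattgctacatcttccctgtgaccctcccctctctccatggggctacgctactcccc
Elane: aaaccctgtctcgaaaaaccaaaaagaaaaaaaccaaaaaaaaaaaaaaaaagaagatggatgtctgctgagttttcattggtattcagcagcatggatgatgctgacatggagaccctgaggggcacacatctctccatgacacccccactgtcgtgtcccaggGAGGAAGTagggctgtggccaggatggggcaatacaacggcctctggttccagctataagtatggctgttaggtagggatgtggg
Prtn3: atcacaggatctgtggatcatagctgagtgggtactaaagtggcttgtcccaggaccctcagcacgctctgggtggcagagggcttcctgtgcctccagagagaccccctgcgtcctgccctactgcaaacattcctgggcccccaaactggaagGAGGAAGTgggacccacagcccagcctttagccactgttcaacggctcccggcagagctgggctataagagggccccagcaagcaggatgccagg
The match begins 224 bases before the start of Mpo, 85 before that of Elane and 95 before that of Prtn3. These shares were given no test, and a match is no evidence that the factor binds there.

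Lymphoid-priming genes fell in LT-HSC as well, 8 of 20, with none higher (median -0.53). Flt3 was at 7.47, 7.46 and 7.51 in LT-HSC, against 9.52, 9.37 and 9.47 in MPP (-1.98 ± 0.15, adjusted p = 2.8e-07). Il7r, the interleukin-7 receptor of lymphoid progenitors, was at 6.15, 6.23 and 6.64 in LT-HSC, against 9.23, 9.0 and 8.85 in MPP (-2.69 ± 0.29). Ccr9, a chemokine receptor that guides progenitors to the thymus, was at 6.56, 5.87 and 6.05 in LT-HSC, against 9.91, 9.87 and 9.52 in MPP (-3.60 ± 0.37). In each case the 3 MPP arrays stood well above all LT-HSC arrays. The genome organizer Satb1 (-1.35 ± 0.16), the recombinase subunit Rag2 (-1.41 ± 0.25) and Il12a (-1.54 ± 0.20) fell too, and Ebf1, the factor that specifies B cells, was the 1 of 16 B cell genes called (-1.99 ± 0.21). Notch1 (-0.70 ± 0.17) lost its call without any 1 array except LT-HSC a (adjusted p 0.0579 to 0.13). Dntt, the terminal transferase of lymphoid progenitors, was at 4.95 to 5.52 in LT-HSC and 4.94 to 5.37 in MPP and did not pass.

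Genes outside the myeloid and lymphoid lists fell as well. Atp8b4, a phospholipid flippase, was at 5.65, 5.61 and 6.98 in LT-HSC, against 10.28, 9.49 and 10.07 in MPP (-3.86 ± 0.46, adjusted p = 4.42e-05). Cdh17, the liver-intestine cadherin, was at 6.42, 5.73 and 5.61 in LT-HSC, against 9.70, 9.43 and 9.93 in MPP, and its difference of -3.77 ± 0.19 had the smallest adjusted p of all genes (5.37e-09). Tlr7, the endosomal sensor of single-stranded RNA, was at 7.25, 6.10 and 6.05 in LT-HSC, against 10.25, 10.00 and 10.30 in MPP (-3.71 ± 0.35). No LT-HSC array came within 2 log2 units of an MPP array for any of them. Tifab, a regulator of TRAF6 signals (-3.50 ± 0.24), the early activation antigen Cd69 (-3.24 ± 0.23), the adhesion receptor Adgrg3 (-2.81 ± 0.24), the chemokine Ccl3 (-2.44 ± 0.17) and BC035044 (-3.55 ± 0.25) were lower too.

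Of 31 hematopoietic cytokine receptors 4 rose (Tek, Epor, Igf2r and Fgfr3) and 7 fell, the largest fall being that of Pdgfrb, a platelet-derived growth factor receptor that was the only 1 of 21 stromal genes called (-3.05 ± 0.18). Pdgfrb was at 6.58, 7.15 and 6.51 in LT-HSC, against 9.66, 9.71 and 10.02 in MPP. Fgfr3 (0.89 ± 0.23) lost its call without any 1 array (adjusted p 0.0732 to 0.158). Of 19 chemokine receptors 4 fell and none rose: Ccr9, Ccr2 (-2.49 ± 0.46), Cxcr2 (-1.32 ± 0.33) and Cx3cr1 (-1.15 ± 0.19), all but Ccr9 known from monocytes and neutrophils. Cxcr2 kept its call among the 6 only without LT-HSC b (adjusted p otherwise 0.0719 to 0.121). The TGF-beta coreceptor Tgfbr3 was higher (1.94 ± 0.23) and Id2, an inhibitor of helix-loop-helix factors, lower (-1.5 ± 0.26) among 29 genes of that pathway.

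Of 20 Notch pathway genes 3 were called and of 22 Wnt genes 3, against 3.4% of all genes. The Notch ligand Dll4 was higher (0.84 ± 0.16) and Dtx4 lower (-1.85 ± 0.19) beside Notch1. The Wnt coreceptor Ryk (1.52 ± 0.25), the inhibitor Dkk1 (0.92 ± 0.15) and the receptor Fzd4 (0.72 ± 0.14) were the Wnt genes called, all higher. Dll4, Dtx4, Ryk, Dkk1 and Fzd4 kept their calls without each array in turn, but all of them except Dtx4 lost theirs without the arrays described as sgEzh2, and Dll4 and Fzd4 also with the erythroid covariate.

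Genes of antigen presentation and pathogen sensing were lower where they passed. Of 21 MHC genes 6 fell and none rose (median -0.36), led by the protease Ctss, which trims the invariant chain (-1.84 ± 0.26), and by H2-DMb2 (-1.35 ± 0.18) and H2-DMa (-1.09 ± 0.15), which load peptides on class II. Signals of H2 genes are uncertain, since relatives in that family are near-identical. Of 17 Toll-like receptor genes, Tlr7, Tlr9 (-0.87 ± 0.23) and Unc93b1, which carries such receptors to endosomes (-0.82 ± 0.16), fell, and the call of Tlr9 was lost without any 1 array (adjusted p 0.0908 to 0.2). Of 39 interferon response genes 5 fell, led by Ifi27 (-1.15 ± 0.12), and 1 rose, Iigp1 (0.92 ± 0.22), with a median of -0.05. The call of Iigp1 was lost without LT-HSC b or any 1 MPP array (adjusted p 0.0612 to 0.131), and 1 member, Ifi27, was lower without LT-HSC a, MPP a or MPP b.

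None of 46 S phase genes and none of 53 G2M genes passed in limma, whereas 12 and 3 were at an unadjusted p under 0.05. Their medians were -0.19 and -0.08, and 38 and 35 of them had a difference below 0. Of 20 cyclins, cyclin-dependent kinases and related regulators 2 fell, Myc and Cdk6, against 1.84% of all genes. Cdkn1a, the cell cycle inhibitor p21, was at 8.32, 7.96 and 8.04 in LT-HSC, against 9.49, 9.24 and 9.52 in MPP, and was the 1 of 20 inhibitors and quiescence genes that passed (-1.31 ± 0.22, adjusted p = 0.0016). Myc was at 11.55, 10.71 and 11.47 in LT-HSC, against 12.25, 12.31 and 12.31 in MPP (-1.05 ± 0.19, adjusted p = 0.00271). Cdk6, a kinase of early G1, was lower by 0.72 ± 0.16, and its call held without LT-HSC c but not without any other array (adjusted p 0.0512 to 0.0808).

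Growth genes lay slightly below 0, and few passed. Of 47 ribosome biogenesis genes 43 had a difference below 0 (median -0.28) and none passed in limma, with 18 at an unadjusted p under 0.05. Of 34 mitochondrial ribosome genes 33 were below 0 (median -0.26) and none passed, with 8 at an unadjusted p under 0.05. A difference below 0 was also found for 39 of 44 genes of oxidative phosphorylation (median -0.19), where Ndufa4 alone passed (-0.48 ± 0.12). Of 24 nucleotide and one-carbon synthesis genes 23 were below 0, and Shmt1 (-0.76 ± 0.18) and Gart (-0.52 ± 0.14) passed. The calls of Ndufa4, Shmt1 and Gart were lost without any 1 array, with adjusted p up to 0.123, 0.0874 and 0.195. Of 22 genes of the unfolded protein response 4 fell and 1 rose. The chaperones fell, Hyou1 by 0.73 ± 0.15, Hspa5 by 0.72 ± 0.16, Sdf2l1 by 0.71 ± 0.15 and Calr by 0.50 ± 0.13, and the stress factor Ddit3 rose by 0.53 ± 0.14. Without LT-HSC b or MPP a no gene of this list was called lower, and Ddit3 kept its call among the 6 only without LT-HSC b (adjusted p otherwise 0.0747 to 0.224). Members of the polycomb repressive complex 2 list (13 genes) and of DNA methylation (12 genes) were not called in limma, with 1 and 1 at an unadjusted p under 0.05.

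**Figure D4:**
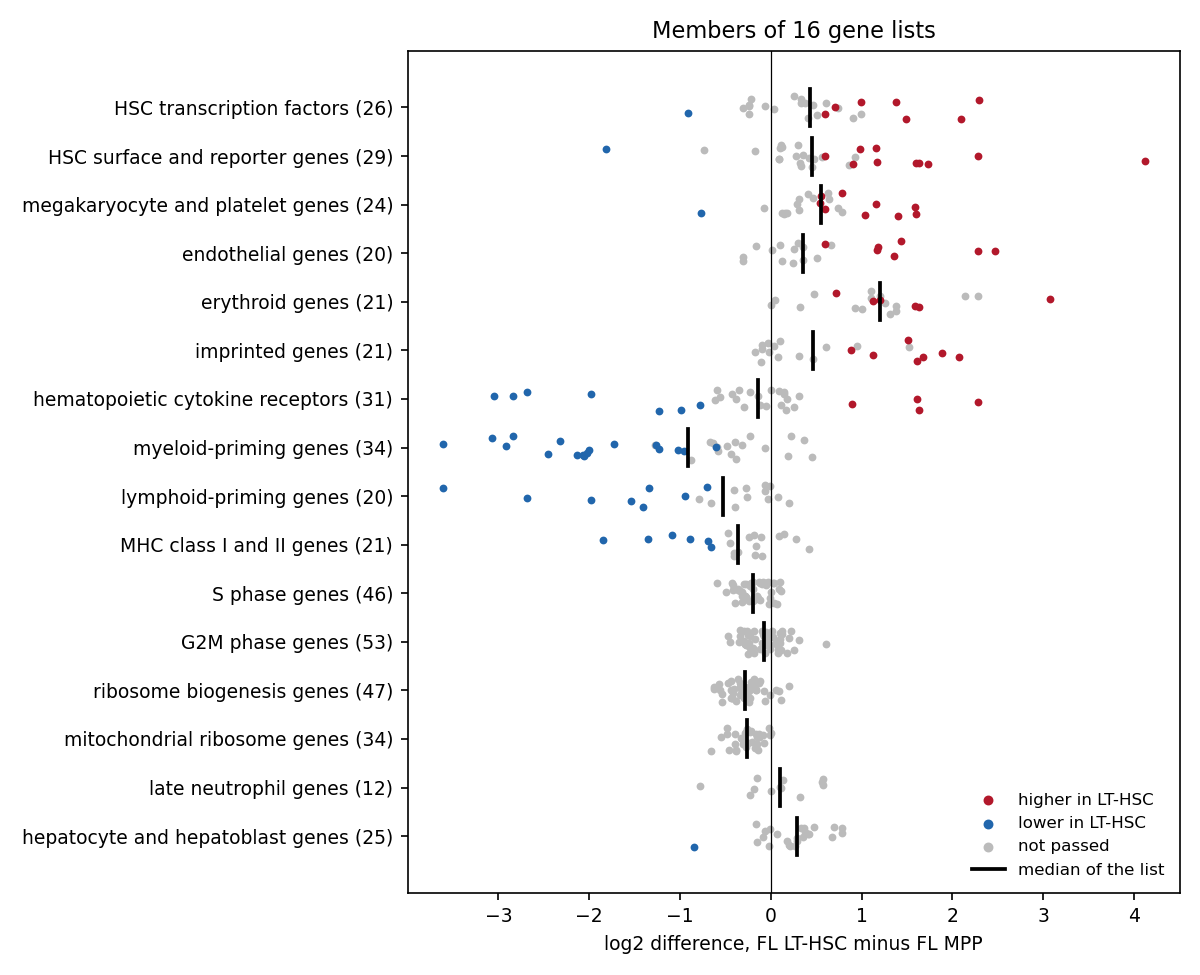
Log2 difference, FL LT-HSC minus FL MPP (x axis), of each measured member of 16 gene lists (y axis, number of genes in parentheses), red where higher, blue where lower and grey where not passed, with a black bar at the median of each list. Red members of the stem cell, platelet, endothelial and erythroid lists lie to the right, blue members of the myeloid and lymphoid lists to the left, and the bars of the S phase (-0.19) and G2M (-0.08) lists near 0.

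Among lists of other cell types, 3 of 17 mast cell, basophil and eosinophil genes and 2 of 18 T and NK cell genes were called. For B cell genes it was 1 of 16, for macrophage genes 1 of 21, for hepatocyte genes 1 of 25 and for stromal genes 1 of 21. The share over all genes was 3.4%. Of 17 mast cell, basophil and eosinophil genes the protease Cpa3 (-2.34 ± 0.39), Hpgds (-1.59 ± 0.21) and Il5ra (-1.23 ± 0.26) were lower in LT-HSC; Il5ra lost its call without LT-HSC a, LT-HSC c or MPP c (adjusted p 0.0514 to 0.0694). The list summed to 1772 to 2124 in LT-HSC and 3194 to 4698 in MPP on the linear scale. For B cell genes the sums were 2717 to 3084 and 3528 to 4306, for T and NK genes 2827 to 3149 and 3200 to 3262, for macrophage genes 4134 to 4391 and 4272 to 4481, and for stromal genes 3940 to 3980 and 4403 to 4668. Of 18 T and NK cell genes Klrb1c rose and Klrd1, a receptor of NK cells, fell (-1.07 ± 0.25); Klrd1 kept its call among the 6 only without MPP a (adjusted p otherwise 0.0538 to 0.131). Of 21 macrophage genes only Csf1r was called (median 0.13). Of 25 hepatocyte genes only Hnf4a passed, and it was lower in LT-HSC (-0.85 ± 0.17). The part of these cells in the results above was not tested. With the mean of the hepatocyte list as covariate 569 genes were called, against 664, and 538 were called in both fits. Of the 146 named genes with a call 18 lost it.

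The means of the FL ST-HSC arrays do not enter the difference between LT-HSC and MPP, although their spread enters its SE. Of the 306 genes higher in LT-HSC, 263 (85.9%) had an ST-HSC mean nearer to LT-HSC than to MPP. Of the 358 lower genes 195 did (54.5%). Set on a scale with 1 at the LT-HSC mean and 0 at the MPP mean, the median position of ST-HSC was 0.84 for higher and 0.52 for lower genes, given as a description. For 94 of the higher and 39 of the lower genes the ST-HSC mean lay outside the range between the LT-HSC and MPP means. Mecom (0.99), Cdh5 (0.99), Mir675 (1.02) and Fn1 (1.03) in ST-HSC were at the level of LT-HSC, whereas Slamf1, of the gate, lay at 0.30. On the same scale Flt3 (0.00), Ccr9 (0.06), Cdh17 (0.17) and Tlr7 (0.18) had ST-HSC means near those of MPP, and Csf1r (0.56) and Tifab (0.55) lay midway. Of the 11 surface and reporter genes called, 10 were nearer to LT-HSC in ST-HSC.

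The same contrast in adult marrow takes its means from BM arrays, but its SE comes from the spread of all 18 arrays, those of FL included. There 892 genes were called (4.57% of all), 434 higher and 458 lower in LT-HSC. Genes higher in both sources numbered 138, which is 45.1% of the FL and 31.8% of the BM list, and genes lower in both 150, or 41.9% and 32.8%. Opposite calls were made for 1 gene higher in FL and 3 lower in FL. Atp1b2, Igf2, Cdh17 and Csf1r were among those not called in BM, with differences of 0.43, 0.45, -0.17 and -0.25. Slamf1 (2.60 in FL and 2.41 in BM), Cdh5 (2.47 and 2.01), Tgfbr3 (1.94 and 1.87), Ccl3 (-2.44 and -2.60) and BC035044 (-3.55 and -2.93) were called in both sources, and the difference between the sources did not pass for any of these 5. The BM count was 255 in a fit of only the BM LT-HSC and BM MPP arrays, 1721 with array weights, 728, 905 and 1105 without BM LT-HSC a, b or c, and 544, 418 and 489 without BM MPP a, b or c.

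The difference between the sources was tested itself, as the FL difference minus the BM difference (stage dependence), and 106 genes passed (0.543% of all). Of the 664 FL calls 60 did. Among the FL genes lower in LT-HSC 42 passed, and for 38 of them the drop was larger in FL. For these and for the higher genes below, the choice by an FL call favours a larger FL difference. The 46 stage-dependent genes not called in FL are outside these counts. Cdh17 had the strongest test, at -3.77 in FL and -0.17 in BM (stage dependence -3.59 ± 0.28, adjusted p = 3.53e-06). Csf1r (-2.84 and -0.25), Cybb (-2.0 and 1.5), Ccr9 (-3.60 and -0.72) and Ebf1 (-1.99 and 0.15) followed the same direction. In Cybb and Pirb (-1.66 and 1.19), the second of which has near-identical relatives, the BM call was of the opposite sign. Markers of mature myeloid cells also differed in BM. There 7 of 12 late neutrophil genes (median 1.48) and 6 of 21 macrophage genes (median 0.60) were higher in LT-HSC and none lower, against 4.57% of all genes called. Of these lists 0 and 2 genes passed for stage dependence. The part of such cells in the stage dependence was not tested. Of 18 genes higher in FL LT-HSC that passed, 15 had the larger rise in FL, such as Pdzk1ip1 (4.12 and 1.78, stage dependence 2.34 ± 0.40), Selp (1.60 and -0.06) and Igf2 (2.07 and 0.45). The platelet genes Pf4 and Mmrn1, unlike Selp, went the other way: Pf4 rose by 1.41 in FL and 2.93 in BM, and Mmrn1 by 0.79 and 2.87. Satb1 (-1.35 and -2.67) and Cd34 (-0.59 and -1.71) fell less in FL than in BM, and the FL call of Cd34 was lost without LT-HSC c or MPP c (adjusted p 0.063 to 0.0722). Dntt, at -0.03 in FL, fell by 5.03 in BM (stage dependence 5.0). BM LT-HSC c had the narrowest interquartile range of the LT-HSC and MPP arrays (2.56), and 231 genes passed without it. Without FL MPP a, b or c 66, 68 and 64 passed, without BM MPP b or c 61 and 62, and without the arrays described as sgEzh2 3.

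**Figure D5:**
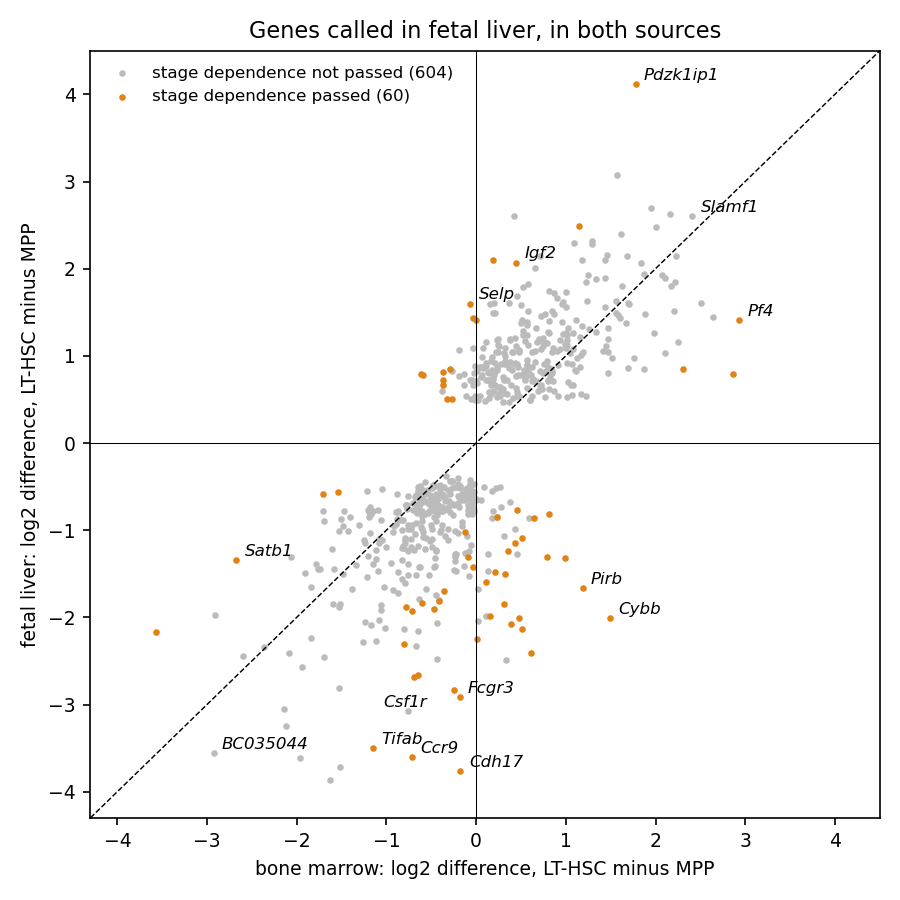
Log2 difference, LT-HSC minus MPP, in FL (y axis) against BM (x axis) for the 664 genes called in FL, with the 60 whose stage dependence passed in orange and the dashed line marking equal differences. Cdh17 lies at -3.77 in FL and -0.17 in BM, and Pf4 at 1.41 in FL and 2.93 in BM.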

How the data were processed

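RNA of sorted cells was read on 18 Affymetrix Clariom S arrays after amplification from small amounts, per the labels' protocols. The deposited values are log2 signals that the authors made with R 3.5.01 and oligo, per the submitters' processing notes, with background correction and normalization not given in the sources used here. Of 22203 probe sets 19572 carried 1 symbol in the platform annotation, all matched to RefSeq, and 2631 were not used; the probe set with the highest mean stood for a gene (67 set aside), leaving 19505 genes. No floor on dim genes was set. Arrays carry no count of reads, so their number, 3 a group, limits precision.

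Groups came from titles. A model with 6 group means was fitted in limma 3.58.1 (R 4.3.3) to the 18 arrays together, and the differences FL LT-HSC minus FL MPP, BM LT-HSC minus BM MPP and the first minus the second were tested with moderated statistics and Benjamini-Hochberg adjustment over all genes. The code was tested on simulated data. Genes were named by rule: the 20 largest called differences in each direction without overlap of arrays, the 10 smallest adjusted p, up to 6 called members of each of 52 gene lists with all members of lists of 15 or fewer genes and those behind small counts, the 10 largest stage dependences and all check genes. Elane, Mpo, Prtn3, Alb and Afp were singled out after their values were seen. The comparison, the lists and the members were chosen with earlier results of these data known, so that no list is independent support. Lists are described by counts and medians, without a test. Promoter and microRNA sequences came from RefSeq (GRCm38.p6).

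Alternatives were leaving out each array, the sgEzh2 arrays or the dimmest 30% of genes, median centring, quantile normalization, averaging probe sets of 1 gene, array weights, trended and robust moderation, a fit restricted to the groups compared, a minimum of 2-fold, the array letter as a block, and the interquartile range or the hepatocyte mean as a covariate. The erythroid mean as a covariate was added after the data were seen.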

Additional observations from a re-analysis of the deposited data

Results flagged for a closer look

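The difference between LT-HSC and MPP itself differed between FL and BM by the test of stage dependence (FL difference minus BM difference, limma, log2 scale) for 31 of the named genes, none of which was given an explanation. Of myeloid genes the stage dependence was -2.59 for Csf1r, -2.73 for Fcgr3, -3.50 for Cybb, -3.03 for Clec5a, -2.85 for Pirb and -2.02 for Serpinb1a. Of chemokine receptors it was -2.89 for Ccr9, -2.31 for Cxcr2 and -1.58 for Cx3cr1. Lymphoid genes went both ways, with -2.14 for Ebf1 and -1.99 for Il7r, against 1.33 for Satb1 and 5.0 for Dntt. For Siglech, a lectin of plasmacytoid dendritic cells, it was -2.79, with differences of -0.92 in FL, not passed, and 1.87 in BM. In BM 7 of 12 late neutrophil genes and 6 of 21 macrophage genes were higher in LT-HSC as well, against 4.57% of all genes called.

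For 3 platelet genes the FL difference was the smaller. Their stage dependence was -1.53 for Pf4, -2.08 for Mmrn1 and -3.15 for Cavin2, which stood at 0.74 in FL, not passed, and 3.89 in BM. Selp, at 1.66, did the opposite. It was 2.34 for Pdzk1ip1, 1.91 for Dach1, 1.62 for Igf2, 1.35 for Klrb1c and 1.12 for Cd34. It was -3.59 for Cdh17, -2.65 for Dse, -2.35 for Tifab, -2.15 for Ctss, -1.83 for Id2, -1.70 for Hpgds, -1.5 for St8sia1 and -1.40 for Abcb1b.

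Without each of the 12 arrays in turn 24 of the 31 kept their call. It was lost without at least 1 array for Abcb1b, Clec5a, Cxcr2, Fcgr3, Id2, Il7r and Klrb1c, and without the arrays described as sgEzh2 for all but Cdh17.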

How the results depend on the processing

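The 664 FL calls became 393 to 547 with 1 array left out, 1478 with array weights, 307 with a minimum of 2-fold, 120 without the sgEzh2 arrays, 1219 with the interquartile range as a covariate and 431 with the erythroid mean as a covariate. The 892 BM calls became 418 to 1105 with 1 array left out, 1721 with array weights, 255 in a fit of only the groups compared, 348 with a minimum of 2-fold and 486 without the sgEzh2 arrays. The 106 stage-dependent genes became 61 to 231 with 1 array left out, 334 with array weights, 54 in a fit of only the groups compared and 3 without the sgEzh2 arrays. A fit without arrays of the groups compared loses replicates by construction. The sgEzh2 arrays are all from FL, so leaving them out keeps the BM differences and changes only the estimate of the spread. Otherwise the cause was not tested. Of 146 named genes with a call 48 kept it under every alternative run gene by gene, and 86 with the setting without sgEzh2 arrays set aside. No difference with a call reversed. The minimum of 2-fold was applied to counts only, and some genes that kept their calls, such as Zbtb16, lie below it. Quantile normalization gave 370 higher and 333 lower FL genes, against 306 and 358. The array letters were not treated as pairs in the main fit. Deviations of same-lettered FL arrays correlated at -0.06, 0.08 and -0.01 and those of BM arrays at -0.17, 0.24 and 0.10. Taken from means of 3 arrays, these values cannot exclude a pairing. With the letter as a replicate block 605 FL genes (fixed) or 710 (random) were called, 835 or 975 in BM, and 80 or 123 for stage dependence. With 3 arrays a group and a median SE of 0.17, small differences, as in the growth and cell cycle lists, lie at the limit of these data.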
